A study of Mus musculus with 7 samples.

Results

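DNA replication and S phase genes were described in mouse bone marrow with and without the microRNA cluster miR-181a2b2. The set held 46 genes, all found by symbol among the 49315 genes of the count table and chosen for their known role in copying DNA. Poly(A)-selected RNA from marrow was sequenced in 7 libraries of mice fed chow and subjected to hindlimb ischemia, a surgical block of blood flow to a leg. The 3 control libraries (flox) were labelled miR-181a2b2 flox/flox, and the 4 knockout libraries (KO) miR-181a2b2-/-; diet, surgery and tissue were shared. The labels give no age, sex, Cre driver or pooling, and no label ties a library to its own mouse. The p-values below therefore reflect the spread among these samples, and that spread may be technical.

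A cell copies its DNA once per division. In G1, the origin recognition complex, Cdc6 and Cdt1 load the ring-shaped MCM helicase onto origins. At the start of S phase, cyclin E kinase and E2F factors switch on the replication genes, Cdc45 and GINS turn MCM into an active helicase, and polymerases copy the strands behind it. Bone marrow divides throughout life, above all in erythroblasts, B cell precursors and myeloid progenitors, so these transcripts are normally abundant there. Because whole marrow was sequenced, fewer dividing cells and less RNA per dividing cell cannot be told apart.

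The deleted cluster encodes microRNAs whose seed, bases 2 to 8, pairs with target messages. The mature sequences are shown because they define which genes could be direct targets; capitals mark the seed, and the letters are from RefSeq on GRCm38.p6, where the cluster at chr2:38852741-38853868 on the plus strand and a second pair of genes on chromosome 1 give identical mature forms. The count table lists all 4 precursor genes at 0 in every library, flox included, so these libraries give no check of the deletion.
mmu-miR-181a-5p: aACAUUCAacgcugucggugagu
mmu-miR-181b-5p: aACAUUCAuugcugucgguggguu
The matching site TGAATGT was present in the longest annotated 3' UTR of 2 of the 46 genes (4.35%), against 17.8% of 14275 tested genes with an annotated 3' UTR. Sites are shown 5' to 3' on the gene's strand with the match in capitals. The Pcna site lies at chr2:132249379-132249407 (GRCm38, minus strand), and the Slbp site, which extends to TGAATGTA, at chr5:33640383-33640412 (minus strand).
Pcna: ttttgttaacaTGAATGTttctgctttac
Slbp: ttttatcaatgTGAATGTAgttttccctca
Neither gene passed the test between the groups. Pcna, the sliding clamp that holds polymerases on DNA, differed by 0.08 on the log2 scale (KO minus flox, SE 0.09; adjusted edgeR p = 0.746, exact permutation p = 0.457). Slbp, which binds the stem-loop of histone messages, gave 0.05 (SE 0.09; adjusted edgeR p = 0.88, exact permutation p = 0.714). The 44 genes without a site had a median of 0.04.

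Promoters were read because E2F sites are the classical switch of this gene set. RefSeq promoters (250 bases before to 50 after the start, GRCm38.p6) were found for 38 of the 46 genes. An E2F word, any of TTTCCCGC, TTTCGCGC, TTTGCCGC or TTTGGCGC on either strand, occurred in 15 of the 38 (39.5%) and in 2.6% of 27025 genes of the same table. In Mcm5 and Mcm6, pairs of these words on opposite strands overlap each other. The CCAAT box (CCAAT, either strand) occurred in 65.8% against 41.1%, and the CHR element of mitotic genes (TTTGAA, either strand) in 15.8% against 20.2%. From 100 bases before to 50 after the start, the CCAAT shares were 57.9% against 26.3% and the CHR shares 10.5% against 9.23%. The order of the CHR shares thus depended on the window. The windows shown belong to genes of 4 roles and lie wholly before the RefSeq start site. They run 5' to 3' on the gene's strand, and capitals mark the word or its reverse complement.
Mcm6: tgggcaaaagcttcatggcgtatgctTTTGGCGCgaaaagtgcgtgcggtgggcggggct
Cdc6: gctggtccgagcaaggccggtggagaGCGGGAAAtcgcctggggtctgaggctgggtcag
Gins3: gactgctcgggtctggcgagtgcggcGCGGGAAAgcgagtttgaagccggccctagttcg
Uhrf1: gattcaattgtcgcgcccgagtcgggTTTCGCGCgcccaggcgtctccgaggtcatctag
They lie at chr1:128359782-128359841 (minus strand) for Mcm6, chr11:98907987-98908046 (plus) for Cdc6, chr8:95633492-95633551 (plus) for Gins3 and chr17:56304102-56304161 (plus) for Uhrf1. Pold1, Cdt1 and E2f2, described below, hold a word after the RefSeq start site. In GENCODE M21, which gave the symbols, Cdc6, Gins3 and Uhrf1 start before their windows, and E2f2 starts after its word. The 15 genes with a word had a median log2 fold change of 0.06 and the 23 without one 0.05, so the members with and without these letters stood at nearly the same difference.

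Library totals lay between 43110251 and 51688514 counts, and the members had between 884 counts (Gins3) and 46623 counts (E2f2) in a library, so counting error was at most 3.36% of a value. Marrow identity was plain: 20 erythroid genes summed to between 38197 and 79297 CPM (counts scaled to library size, on library sizes scaled with the trimmed mean of M-values, TMM), and 12 neutrophil genes to between 19816 and 33923 CPM. The extraction text speaks of white adipose tissue, but the adipocyte genes Adipoq and Plin1 stood at 4.22 to 19.7 and 0.0843 to 0.916 CPM. Summed, 12 intestinal epithelial genes took 53.9 ± 1.26 CPM in the 3 flox libraries and 124 ± 6.16 CPM in the 4 KO libraries (SD). All 12 were higher in KO at an adjusted edgeR p under 0.05, among 24 such genes of all tested. The part of these 12 genes in the results was not tested.

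No replication or S phase gene passed the test between KO and flox marrow. In an edgeR quasi-likelihood test over 17920 genes, 0 of the 46 members passed an adjusted p of 0.05. Of all tested genes 0.145% did (0.134% higher and 0.0112% lower in KO). Of the 7270 genes at least as abundant as the least abundant member, 0 passed, so 0 members is what genes of this abundance gave. DESeq2, which called 2.27% of its genes, and limma-voom also called 0 members. At an unadjusted p under 0.05, 1 member passed (Uhrf1), or 2.17%, against 14.1% of all tested genes (5.89% higher and 8.17% lower) and 13.6% of the 7270 genes at least as abundant as the least abundant member. The groups did not overlap in 1 member, Rfc2, which was lower in KO; over all genes they did not overlap in 13.6% (KO above in 6.22%, below in 7.41%). The members' median log2 fold change was 0.04, with 35 higher and 11 lower in KO, beside a median of -0.01 and 48.1% higher over all tested genes. With library size alone as the scaling, or with DESeq2-style size factors (RLE), 40 members were higher and 6 lower.

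The intervals of the fit bounded these differences, against a spread among libraries that may be technical. The 95% interval of every one of the 46 genes lay inside a 1.5-fold change in either direction; these are intervals of single genes, not adjusted for their number. The lowest limit was -0.41 on the log2 scale (Mcm10), the highest 0.54 (E2f2), and Orc1 had the widest interval, from -0.32 to 0.47. The median SE was 0.08 for the members and 0.09 for genes of at least their abundance, and 36 members differed by less than 0.1 on the log2 scale.

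**Figure D1:**
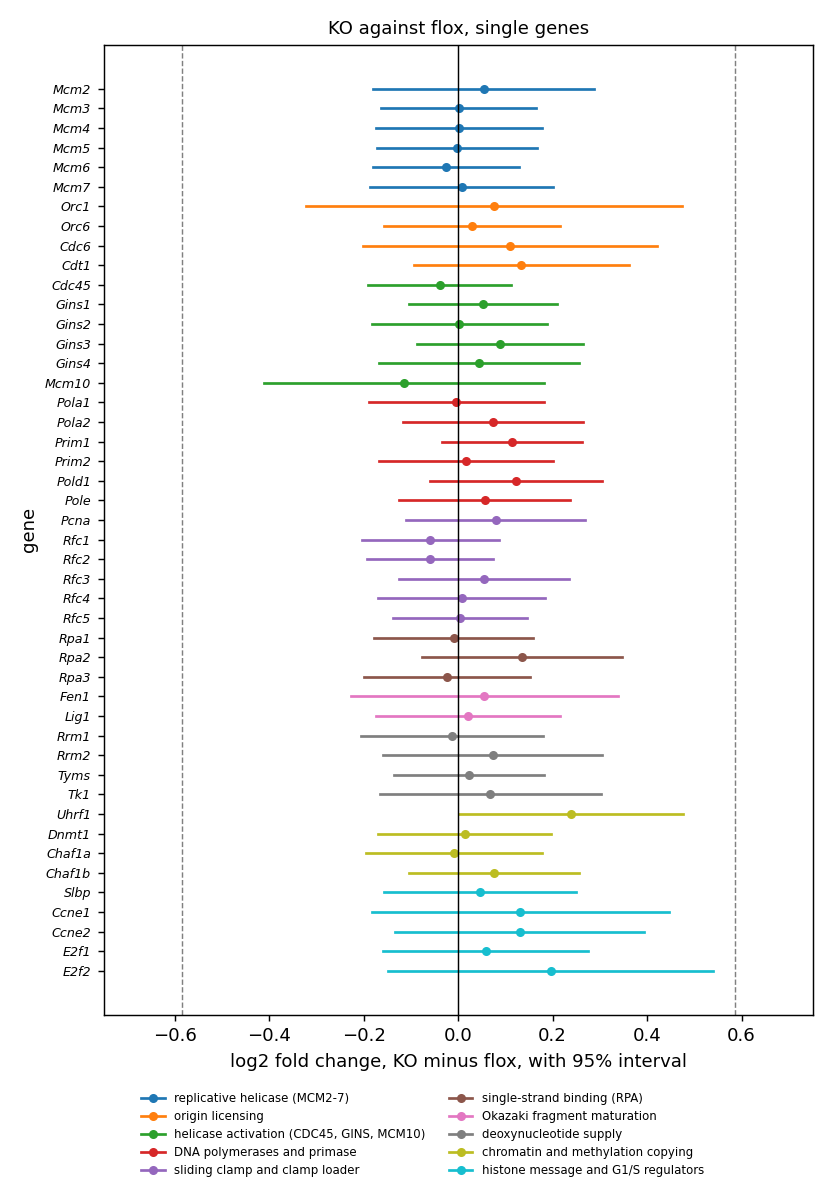
Log2 fold change (KO minus flox, x axis) of each of the 46 genes (y axis, coloured by role), with points for the estimate and bars for the 95% interval; dashed lines mark a 1.5-fold change. All 46 intervals lie between the dashed lines, and 45 of them hold 0.

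The MCM helicase genes, whose products form the ring that unwinds DNA, gave differences near 0: Mcm3, Mcm4, Mcm5 and Mcm7 lay within 0.01 of 0 on the log2 scale. Mcm7 stood at 430, 378 and 422 CPM in the 3 flox libraries and at 384, 395, 462 and 408 CPM in KO. Flox 2 was the lowest and KO 3 the highest, and the groups overlapped throughout. Its log2 fold change was 0.01 (SE 0.09; adjusted edgeR p = 0.983; exact two-sided permutation p = 0.914, where 35 splits allow no p below 0.0286). Mcm2, the member of the ring with the largest difference, had 346, 276 and 323 CPM in flox and 314, 292, 372 and 331 CPM in KO. Here too flox 2 was lowest and KO 3 highest, with a log2 fold change of 0.05 (SE 0.10, adjusted p = 0.877; exact permutation p = 0.657). Mcm6 gave -0.03.

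In all 4 origin licensing genes the groups overlapped, and none passed the test. Cdt1, the loader of MCM that is destroyed once S phase starts, stood at 113, 99.2 and 119 CPM in flox and at 110, 112, 141 and 121 CPM in KO. All but KO 3 and KO 4 lay at or below the highest flox library. The log2 fold change was 0.13 (SE 0.10; adjusted edgeR p = 0.617, exact permutation p = 0.4). Orc1, the ATPase subunit of the origin recognition complex, ran from 29.3 CPM in flox 2 to 49.98 CPM in KO 3, the widest range of the 46 genes (1.71-fold), and its log2 fold change was 0.08 (SE 0.17). Cdc6, which completes the loader, gave 0.11 (SE 0.14) and Orc6 0.03 (SE 0.08). In all 4 licensing genes flox 2 was the lowest and KO 3 the highest library.

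Among the helicase activators, Mcm10 stood apart. This gene, whose product helps to start the assembled helicase, had 65.6, 57.7 and 64.4 CPM in flox and 64.2, 63.4, 43.2 and 60.4 CPM in KO. KO 3, the library where most members were highest, had the lowest Mcm10 of the 7, while the other KO libraries lay within the flox range. Its log2 fold change was -0.11 (SE 0.13; adjusted edgeR p = 0.771, exact permutation p = 0.657), the lowest of the 46, and 0.02 without KO 3.

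The GINS genes encode the complex that joins Cdc45 and MCM. Gins3 stood at 20.7, 18.4 and 18.9 CPM in flox and at 19.99, 20.9, 20.3 and 21.1 CPM in KO. The KO libraries lay close together and above flox 2 and flox 3, but flox 1 lay among them (difference 0.09 on the log2 scale, SE 0.08; adjusted edgeR p = 0.683, exact permutation p = 0.143). Gins4, the most abundant of them per length, had 48.9, 44.7 and 42.8 CPM in flox and 44.9, 41.8, 53.7 and 47.3 CPM in KO; KO 2 was the lowest library, KO 3 the highest (0.04, SE 0.09, adjusted p = 0.889; exact permutation p = 0.743). Gins1 gave 0.05, Gins2 0.00238 and Cdc45 -0.04.

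Of the 6 polymerase and primase genes, 5 had a difference above 0 and none passed the test. Prim1, the catalytic subunit of primase, which lays the RNA primers, stood at 74.9, 67.1 and 68.7 CPM in flox and at 74.4, 74.4, 77.4 and 77.7 CPM in KO. KO libraries were tightly spaced, and flox 1 overlapped the lower pair. Its log2 fold change was 0.11 (SE 0.07; adjusted edgeR p = 0.481), with an exact permutation p = 0.0857. Pold1, the catalytic subunit of the lagging strand polymerase, had 115, 126 and 125 CPM in flox and 132, 120, 148 and 131 CPM in KO. KO 2 fell among the flox values and the other KO libraries lay above them (0.12, SE 0.08, adjusted p = 0.55; exact permutation p = 0.257). Pole, of the leading strand polymerase, gave 0.06, the primase partner Prim2 0.02, and the polymerase alpha subunits Pola1 and Pola2 gave -0.00344 and 0.07.

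Clamp and clamp loader genes gave differences between -0.06 and 0.08. Pcna stood at 462, 379 and 439 CPM in flox and at 432, 437, 474 and 463 CPM in KO. Only flox 2 lay clearly below the rest, and the test gave a log2 fold change of 0.08 (exact permutation p = 0.457). The loader subunit Rfc2 had 118, 121 and 117 CPM in flox and 111, 116, 117 and 111 CPM in KO. All KO libraries lay below all flox libraries, by less than 1 CPM at the nearest pair, and the log2 fold change was -0.06 (SE 0.06; adjusted edgeR p = 0.726, exact permutation p = 0.0857). The highest library exceeded the lowest by 1.09-fold for Rfc2, the smallest range of the 46 genes. Rfc1, the large subunit, gave -0.06, Rfc3 0.06, Rfc4 0.00719 and Rfc5 0.00416.

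Replication protein A coats the exposed single strands. Its subunit gene Rpa2 stood at 76.8, 69.5 and 84.4 CPM in flox and at 74.8, 84.5, 94.1 and 84.4 CPM in KO, with flox 2 lowest and KO 3 highest (difference 0.13 on the log2 scale, SE 0.09; adjusted edgeR p = 0.578, exact permutation p = 0.257). Rpa1 had 207, 177 and 204 CPM in flox and 192, 186, 202 and 198 CPM in KO, all within the flox range, and a log2 fold change of -0.01 (SE 0.08, adjusted p = 0.976; exact permutation p = 0.914). Rpa3 gave -0.02.

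Of the genes that join Okazaki fragments, the ligase gene Lig1 stood at 285, 239 and 278 CPM in flox and at 259, 258, 300 and 269 CPM in KO (difference 0.02 on the log2 scale, SE 0.09; adjusted edgeR p = 0.949, exact permutation p = 0.8). The flap endonuclease gene Fen1 had 32.2, 23.3 and 27.1 CPM in flox and 28.0, 24.7, 33.1 and 28.8 CPM in KO (0.06, SE 0.13, adjusted p = 0.896; exact permutation p = 0.686). Both were lowest in flox 2 and highest in KO 3. Exons of Gm10143 on the opposite strand cover 78.8% of the Fen1 exons, and reads of the pair cannot be told apart without the strand setting of the counting, on which the labels are silent. The same holds for Gins2 (67.3% covered by Gse1) and Chaf1a (52.5% by Ubxn6).

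Of the enzymes that supply deoxynucleotides, Rrm2, the S phase subunit of ribonucleotide reductase, stood at 534, 412 and 534 CPM in flox and at 501, 491, 561 and 523 CPM in KO. Flox 2 was far below the other 6 libraries, and the log2 fold change was 0.07 (SE 0.10; adjusted edgeR p = 0.818, exact permutation p = 0.657). Rrm1, the large subunit, gave -0.01, the thymidylate synthase gene Tyms 0.02 and the thymidine kinase gene Tk1 0.07. The Rrm2 to Rrm1 ratio of CPM within a library was 1.05 ± 0.0708 (SD, n = 3) in flox and 1.12 ± 0.0166 (SD, n = 4) in KO, with flox 3 at 1.12 inside the KO range.

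Uhrf1, which reads hemimethylated DNA behind the fork and recruits the maintenance methyltransferase, had the lowest p of the 46. It stood at 284, 243 and 306 CPM in flox and at 306, 296, 375 and 332 CPM in KO. KO 1, KO 3 and KO 4 lay above every flox library, KO 1 by less than 1 CPM, and KO 2 lay below flox 3. The means were 278 ± 31.9 CPM (SD, n = 3) and 327 ± 35.3 CPM (SD, n = 4). They differed by 0.24 on the log2 scale (SE 0.11; adjusted edgeR p = 0.353, exact permutation p = 0.114). The difference was 0.17 without flox 2, 0.18 without KO 3 and 0.10 without both. Dnmt1, the methyltransferase itself, gave 0.01 (SE 0.08), and the chromatin assembly factor genes Chaf1a and Chaf1b gave -0.00904 and 0.08. The Uhrf1 to Dnmt1 ratio of CPM was 0.58, 0.525 and 0.686 in flox and 0.652, 0.696, 0.73 and 0.702 in KO, and KO 1 lay below flox 3.

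All 5 regulators of the G1 to S transition and of histone messages had a difference above 0, none past the test, with a median of 0.13. Without flox 2 the median was 0.02 and the differences of Ccne1 and Slbp were -0.02 and -0.04; without KO 3 that of E2f1 was -0.01. E2f2, an activating E2F factor with high levels in erythroid precursors, stood at 758, 587 and 791 CPM in flox and at 655, 758, 997 and 853 CPM in KO. The KO libraries spanned most of the flox range and went beyond it in KO 3 and KO 4. The log2 fold change was 0.20 (SE 0.15; adjusted edgeR p = 0.63, exact permutation p = 0.371), and -0.02 without flox 2 and KO 3. The cyclin gene Ccne2 had 58.3, 42.3 and 53.4 CPM in flox and 64.4, 51.5, 55.3 and 53.6 CPM in KO, with KO 1 highest (0.13, SE 0.12, adjusted p = 0.686; exact permutation p = 0.457). Its partner in function Ccne1 gave 0.13 (SE 0.14) and the factor gene E2f1 0.06 (SE 0.10).

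Many members, but not all, had the same libraries at the ends of their range. Flox 2 was the lowest library for 32 of the 46 genes and KO 3 the highest for 27. Among the 96 further pathway genes described below these counts were 34 and 27, and among the 20 erythroid genes 20 and 12. Summed, the members took 8073, 6896 and 7868 CPM in flox 1, flox 2 and flox 3 and 7543, 7444, 8634 and 7977 CPM in KO 1 to KO 4. The lowest library was a flox library and the highest a KO library, but the other 5 were interleaved. Group means were 7612 ± 629 CPM (SD, n = 3) and 7899.8 ± 542 CPM (SD, n = 4), a ratio of 1.04.

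**Figure D2:**
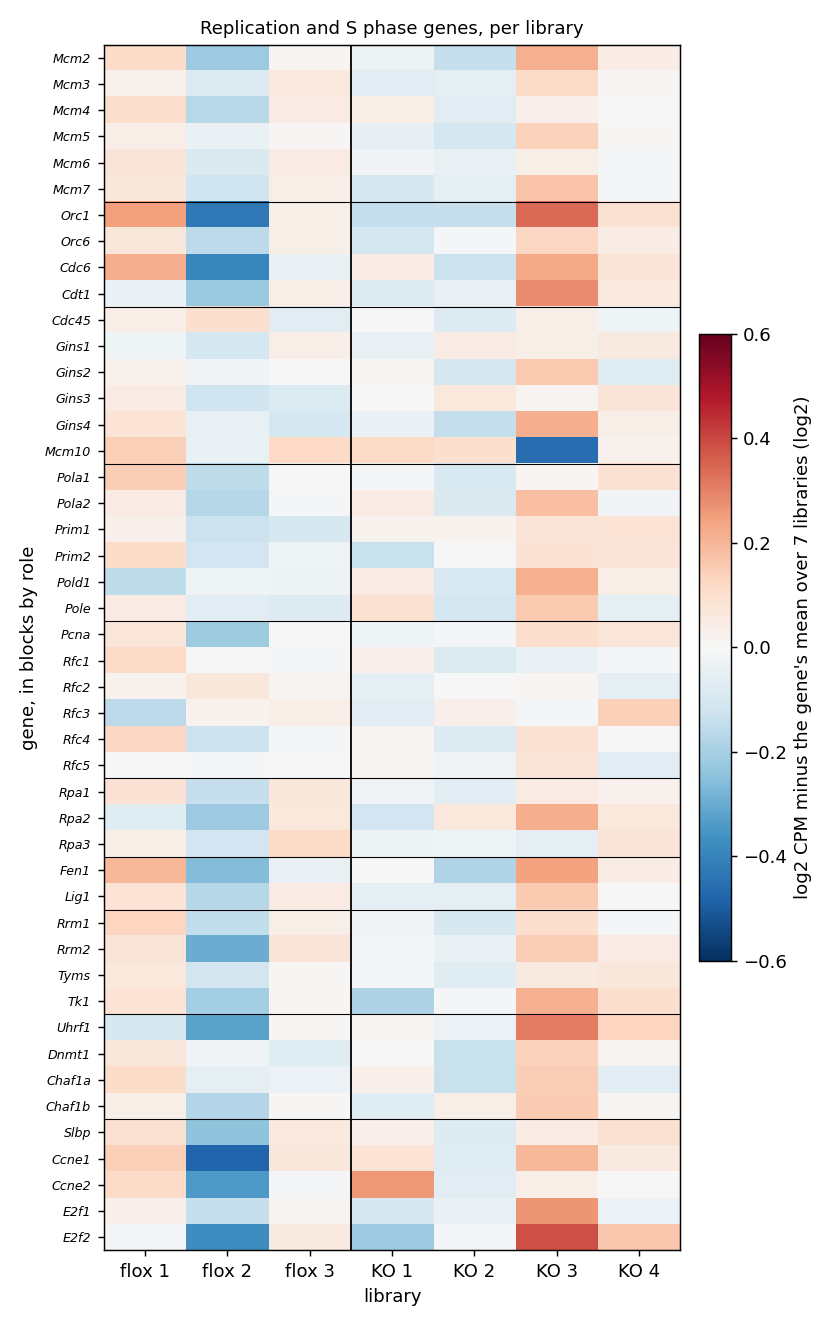
Log2 CPM of each gene (rows, in blocks by role) in each of the 7 libraries (columns), shown as the difference from that gene's mean over the libraries; red is higher, blue is lower. The flox 2 column is blue for most genes and the KO 3 column red, with Mcm10 as the dark blue exception in KO 3.

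The excess of higher over lower members changed with these libraries. Without flox 2, 21 members were higher and 25 lower (median -0.01); without KO 3, 27 were higher and 19 lower (median 0.01). Without both, a choice made after seeing the data, 11 were higher and 35 lower (median -0.04). In each case 0 members passed.

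The size of this swing differed by role. In flox 2 the median deviation from a gene's own mean was -0.34 on the log2 scale for the G1 to S regulators, -0.31 for licensing genes and -0.22 for the Okazaki fragment genes. It was -0.10 for the MCM genes, -0.04 for the helicase activators and -0.00342 for the clamp and loader genes. In KO 3 the same medians were 0.20, 0.26, 0.20, 0.13, 0.04 and 0.04. These are descriptions of 2 libraries, and the difference between roles was not tested.

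Erythroid genes had nearly the same order of libraries. The median deviation of the 20 erythroid genes was 0.38 in KO 3, 0.26 in flox 1, 0.07 in KO 4, 0.00870 in KO 1, -0.04 in flox 3, -0.08 in KO 2 and -0.59 in flox 2. For the 46 members it was 0.13 in KO 3, 0.07 in flox 1, 0.03 in KO 4, 0.00974 in flox 3, -0.02 in KO 1, -0.06 in KO 2 and -0.13 in flox 2. The 2 orders differ only in the places of flox 3 and KO 1. All 20 erythroid genes had a difference above 0 (median 0.18, 0 past the edgeR test). At an unadjusted p under 0.05 there were 2, the haemoglobin genes Hbb-bt and Hba-a2. Their sum was 51719 ± 13010 CPM over the 3 flox libraries and 65448 ± 9263 CPM over the 4 KO libraries (SD), a ratio of 1.27 for the 20 genes. Haemoglobin genes made up most of it, with Hbb-bs at 20449 and 26771 CPM and Hba-a1 at 11112 and 14206 CPM (means of flox and KO). The differences ran from 0.02 (Car1) to 0.50 (Hba-a2). The part of erythroid cells in the members' levels was not tested.

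B cell precursor genes had another order, with flox 1 lowest by far at -2.57 and KO 1 and KO 3 level at the top (0.88 each), although flox 1 had the second highest median of the replication genes. Promyelocyte genes, markers of the dividing stage of neutrophils, were highest in flox 2 (0.79) and lowest in KO 3 (-0.48), opposite to the members. Summed, the 15 B cell precursor genes took 674 ± 379 and 1222 ± 126 CPM in flox and KO, and the 9 promyelocyte genes 4953 ± 1521 and 3267 ± 446 CPM (SD, n = 3 and n = 4). All 9 promyelocyte genes were lower in KO (median log2 fold change -0.59) and all 15 B cell precursor genes higher (median 1.18), 0 past the edgeR test. At an unadjusted p under 0.05 these were 9 of 9, against 8.17% lower over all tested genes, and 3 of 15, against 5.89% higher.

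**Figure D3:**
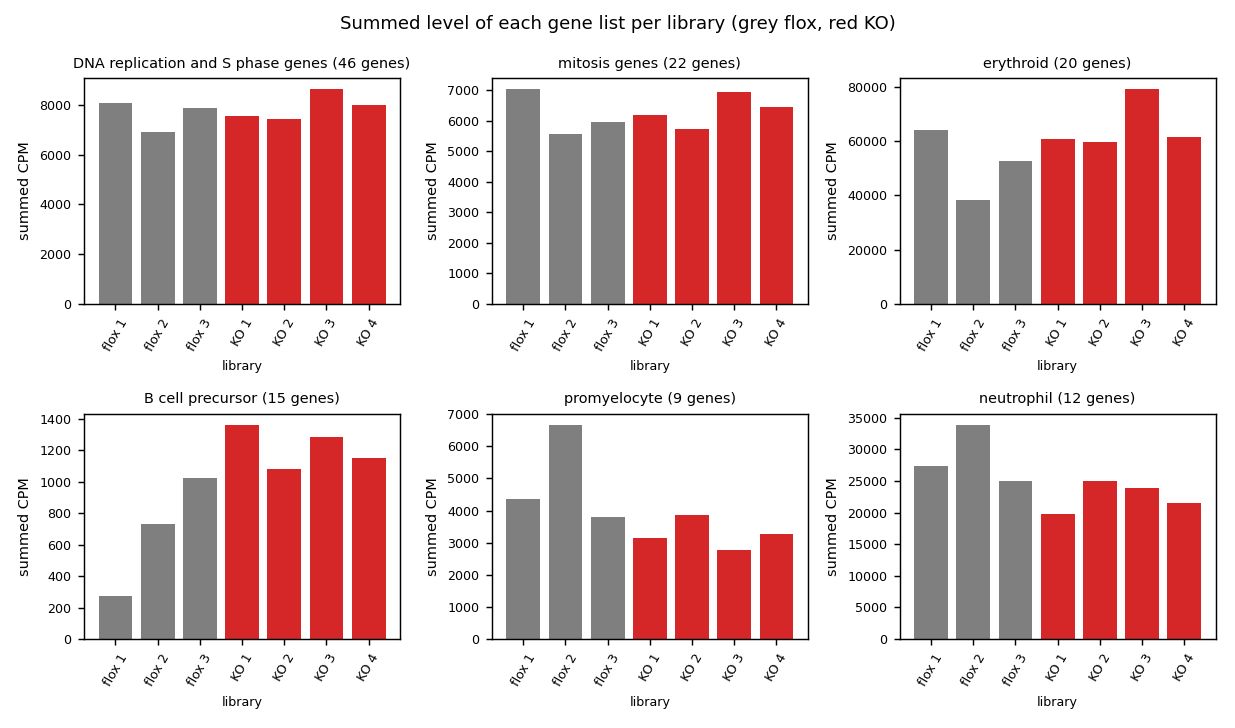
Summed CPM (y axes, from 0) of 6 gene lists in each library (x axes), flox in grey and KO in red, 1 bar per library. The replication genes run from 6896 in flox 2 to 8634 in KO 3, as erythroid genes do from 38197 to 79297, while promyelocyte genes are highest in flox 2. Haemoglobin genes make up most of each erythroid bar.

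Levels between genes were compared per length, as RPKM (CPM divided by the length of merged exons in kilobases). Pcna stood at 184 ± 13.1 RPKM (SD over 7 libraries), Rrm2 at 183 ± 17.4 and E2f2 at 158 ± 27.2, and these were the 3 genes above 100 RPKM. Pcna and Rrm2 did not differ beyond their spread, and the ranges of all 3 overlapped. Mcm7 came next, and the MCM genes, with Uhrf1, Dnmt1 and Lig1 among them, ran from 92.9 ± 6.61 RPKM for Mcm7 down to 46.3 ± 4.64 for Mcm2. Gins2 was lowest at 5.92 ± 0.346 RPKM, 31.0-fold below Pcna. Exons of Gse1 on the opposite strand cover 67.3% of the Gins2 exons, and the strand setting of the counting is unknown. The effect of this overlap on the Gins2 level, and of those in Fen1 and Chaf1a, was not tested.

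E2f2 was far more abundant than E2f1, at 21.9 ± 2.09 RPKM, and the ratio of their CPM was 10.5 ± 1.01 in flox and 11.6 ± 1.09 in KO (SD, n = 3 and n = 4). Cyclin E1 (Ccne1, 27.9 ± 3.90 RPKM) lay above cyclin E2 (Ccne2, 15.5 ± 1.92). The length chosen matters within complexes: per length of the longest coding transcript, Mcm2 rose from 46.3 to 95.5 RPKM, close to Mcm3 at 97.5, and Slbp from 32.3 to 103. Pcna, Rrm2, E2f2 and Mcm7 led under both lengths, and Gins3 and Gins2 were lowest under both, with the limit on Gins2 given above.

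**Figure D4:**
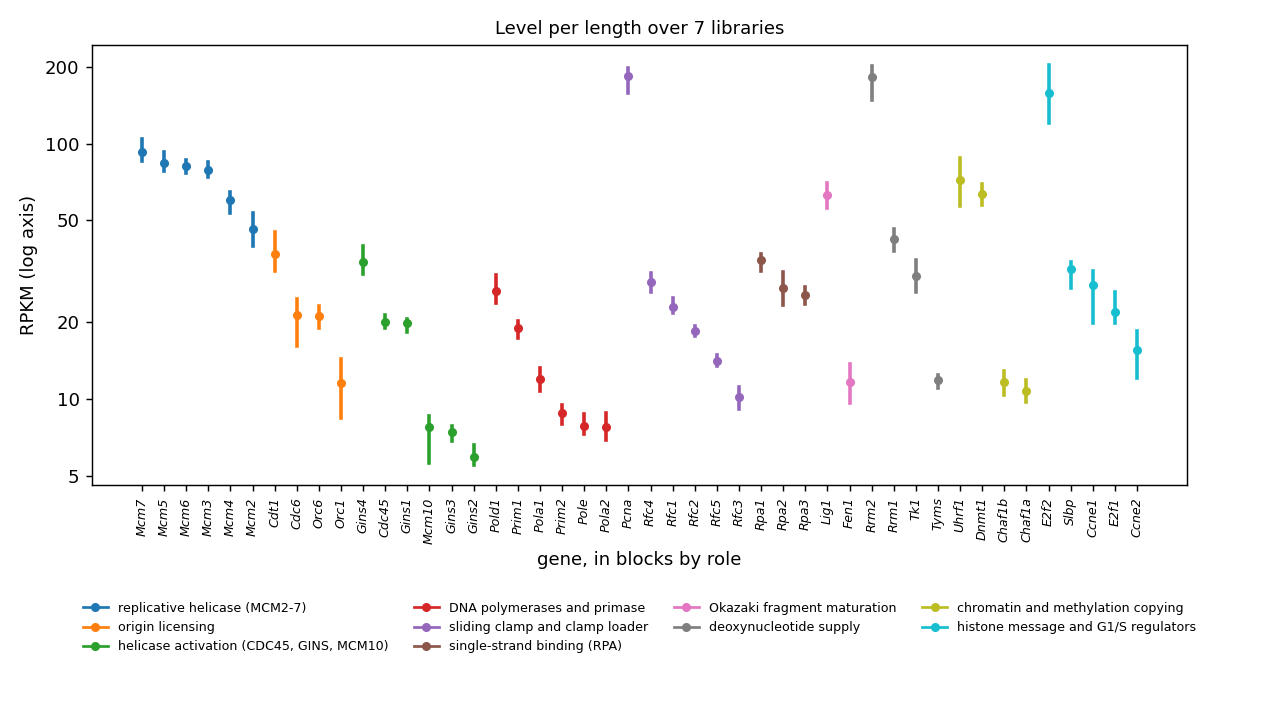
RPKM of each gene (y axis, log scale) in blocks by role (x axis); points are means over the 7 libraries and bars run from the lowest to the highest library. Pcna, Rrm2 and E2f2 lie above 100 RPKM and 6 genes below 10 RPKM.

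Of 96 further genes for replication, deoxynucleotides, chromatin assembly, fork repair and G1 to S control, all tested, 0 passed the edgeR test in either direction, 63 were higher and 33 lower in KO, and the median log2 fold change was 0.02. At an unadjusted p under 0.05 there were 3 (3.12%, against 14.1% of all tested genes), and the groups did not overlap in 6 (6.25%, against 13.6%). Rrm2b, the stress-inducible alternative to Rrm2, had the lowest p: it stood at 18.2, 22.7 and 26.3 CPM in flox and at 31.6, 29.4, 29.3 and 29.8 CPM in KO. All 4 KO libraries lay above all flox libraries, and the difference still missed the threshold (difference 0.42 on the log2 scale, SE 0.11; adjusted edgeR p = 0.213, exact permutation p = 0.0286). Of the same list, the nucleoside kinase gene Dck gave 0.13 (SE 0.10), Samhd1, which breaks deoxynucleotides down, -0.09 (SE 0.09) and Shmt1, of folate metabolism, -0.12 (SE 0.13).

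Tfdp1, a dimer partner of activating E2F factors, had 304, 309.7 and 279 CPM in flox and 268, 267, 257 and 256 CPM in KO. Every KO library lay below every flox library, while E2f1 and E2f2 overlapped (difference -0.18 on the log2 scale, SE 0.07; adjusted edgeR p = 0.278, exact permutation p = 0.0286). The repressor gene E2f7 gave 0.27 (SE 0.12, adjusted p = 0.345), the cell cycle inhibitor Cdkn1a 0.34 (SE 0.16) and the phosphatase gene Cdc25a -0.16 (SE 0.09). Among the other replication genes with the lowest p, Orc3 gave -0.16 (SE 0.08), the clamp unloader Atad5 0.18 (SE 0.11), the checkpoint adaptor Topbp1 0.08 (SE 0.06) and the origin-firing kinase gene Cdc7 0.10 (SE 0.07). Of the repair genes, the nuclease gene Exo1 gave 0.14 (SE 0.08), Rad51ap1 0.11 (SE 0.08) and the uracil glycosylase gene Ung 0.13 (SE 0.09). Atrip, the partner of the ATR kinase, gave 0.35 (SE 0.22) from only 31 to 47 counts in a library.

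The mitosis genes, which act after replication, are given side by side. Of 22 such genes 13 were higher and 9 lower in KO, with a median of 0.01 and 0 calls, and their sums were 6193 ± 757 CPM over the 3 flox libraries and 6331 ± 508 CPM over the 4 KO libraries (SD). Flox 1 and KO 3 were each the highest library for 10 of the 22, and flox 2 was the lowest for 9.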

How the data were processed

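The authors deposited raw read counts per Ensembl gene, 1 column per library. Trimmomatic 0.36, STAR 2.5.2b, featureCounts, Subread 1.5.2 and build GRCm38 are named in the submitters' processing notes; for the annotation, strand setting and multiply mapped reads of that counting, these say nothing. Symbols, exons and 3' UTRs came from GENCODE M21 (GRCm38; 49056 of 49315 IDs matched), promoters and microRNAs from RefSeq. Counts were filtered (filterByExpr, minimum count 10), TMM-scaled and fitted with robust glmQLFit and glmQLFTest (edgeR 4.0.16, R 4.3.3), two-sided, with Benjamini-Hochberg adjustment over 17920 genes; DESeq2 1.42.0 and limma 3.58.1 were alternatives. Standard errors come from the F statistic. Exact permutation tests used log2 CPM (prior count 2) over 35 splits. The members and lists were chosen with earlier results of these data known. Full statistics went to the 8 members with the lowest p and, per role, the most abundant per length and the largest change; Rfc2 and Rrm2b with Tfdp1 got them after their values were seen. Of each other pathway list, the 4 genes with the lowest p were named. In a test on simulated counts of this comparison (17920 genes), recovery was 40% at 1.5-fold, 58% at 2-fold, 90% at 3-fold and 94% at 4-fold. Of 162 calls 21 were false, a larger share than the 0.05 threshold on the adjusted p aims at. Recovery was not measured for the members alone, whose median SE was 0.08 against 0.15 over all tested genes. None of the 9 pairs of libraries within a group agreed within sampling noise.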

Additional observations from a re-analysis of the deposited data

Results flagged for a closer look

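E2f1 in KO 3 stood apart from the other KO libraries, at 82.7 CPM against 64.3, 67.0 and 67.1 CPM in KO 1, KO 2 and KO 4. The gap to the nearest library was 0.851 of the range of the 4, above Dixon's critical value at 95%. In all 57 sets of 4 KO values were examined (46 genes, their sum and 10 role sums), and chance flags about 1 in 20, so 1 is no more than chance gives.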

How the results depend on the processing

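The count of members past the threshold was 0 under all 18 alternatives, and the lowest adjusted p of any member was 0.253 (without flox 3, edgeR). The members' median log2 fold change stayed within the spread between libraries (0.09) under all of them, but it changed sign without flox 2 (-0.01) and without flox 2 and KO 3 (-0.04). With the other scalings 39 or 40 members were higher. Single members changed sign in 35 of 460 fits with other processing and in 80 of 368 fits with libraries left out. Over all genes, the calls (24 higher, 2 lower) became 251 and 148 with DESeq2, 84 and 28 without a filter on low counts, 15 and 1 with non-robust dispersion, 1 and 0 without flox 2 and KO 3, and 2 to 14 higher and 0 to 1 lower with 1 library left out. With the replicate number as a block they were 3 and 1, and 0 members. Deviations of same-numbered libraries correlated at -0.02, 0.08 and 0.02, and those of the other pairs at -0.09 to 0.05. All are near 0, so these correlations cannot show whether the numbers pair the samples. The members' median level was 24.1 RPKM by merged exons and 35.02 RPKM by the longest coding transcript, a choice made after seeing the data. Within 100 bases before to 50 after the start, 28.9% of the 38 member promoters held an E2F word, against 1.45% of 27025 genes. Counting error, at most 3.36% of a value, lay below the members' median SD over mean (7.89% in flox, 7.04% in KO). It did not lie below the spread of every member: Gins3, with the lowest count, had an SD over mean of 2.57% in KO.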

Other observations

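Stem and progenitor genes, 12 in number, had a median log2 fold change of -0.21, with 9 lower and 3 higher in KO and 0 past the edgeR test (3 lower, or 3 of 12, at an unadjusted p under 0.05, against 8.17% of all tested genes). Their median deviation was lowest in KO 3, at -0.48 on the log2 scale, the library with the highest replication gene levels, and highest in flox 1 at 0.19. The 12 neutrophil genes, which include the secondary granule genes Ltf, Camp, Ngp and Lcn2, made from the myelocyte stage on, summed to 28717 ± 4664 CPM over the 3 flox libraries and 22549 ± 2331 CPM over the 4 KO libraries (SD), with the highest sum, 33923 CPM, in flox 2.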
